A study of Homo sapiens with 8 samples.

Results

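The BCL2 family decides whether a cell under stress permeabilises its outer mitochondrial membrane and dies by apoptosis. The 10 members described here were taken from the deposited expression table by gene symbol, and they are 10 of the 60664 gene rows of that table. Each symbol matched a single row, and all 10 genes passed the filter on low values (at least 1 FPKM in at least 2 of 8 libraries). FPKM scale the reads of a gene to its exon length and to the mapped reads of the library, so that levels can be set side by side between genes of different length.

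The cells were THP-1, a human monocytic leukemia line used as a model of acute myeloid leukemia (AML), labelled wild type in all 4 groups. Parental THP-1 cells were cultured with DMSO (the solvent control) or with 1 µM decitabine (DAC) for 6 days, and DAC-resistant THP-1 cells were given the same DMSO or DAC treatment. DAC is a hypomethylating agent (HMA), a cytidine analogue that traps DNA methyltransferases once it is built into DNA. The DAC-resistant line was selected from the parental cells by repeated cycles of DAC and drug-free culture, so that every DAC-resistant library comes from a single selected line with earlier DAC exposure. Each group had 2 libraries, labelled as biological replicates, and the labels do not say whether these came from separate cultures. The p-values below therefore measure the spread between these libraries, which may be technical.

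The family has 3 classes. Anti-apoptotic members (BCL2, BCL2L1 encoding BCL-XL, MCL1 and BCL2A1 encoding BFL-1) hold pro-apoptotic relatives in a groove on their surface. The effectors BAX and BAK1 form the pores through which cytochrome c leaves the mitochondrion, after which caspases are activated. BH3-only members carry stress signals to the others: BCL2L11 (BIM) and BID can engage the effectors directly and bind the whole anti-apoptotic class, BBC3 (PUMA) binds that class broadly, and PMAIP1 (NOXA) binds mainly MCL1 and BFL-1. In AML, BCL2 is the target of the drug venetoclax, and MCL1 and BFL-1 are known as routes by which leukemia cells withstand it.

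The reads on genes, recovered from the deposited values, numbered between 28717772 and 33416690 per library. Of 10 monocytic marker genes fixed for THP-1, 10 reached 1 FPKM in at least 1 library, and SPI1, the transcription factor of the myeloid lineage, lay between 67.4 and 129 FPKM, whereas the macrophage marker CD68 was at most 1.53. The summed level of these 10 markers was 333 to 346 FPKM in parental cells with DMSO, 408 to 417 with DAC, 231 to 239 in DAC-resistant cells with DMSO and 229 to 236 with DAC. Markers of T cells summed to at most 0.899 FPKM, of epithelial cells to at most 1.93, of erythroid cells to at most 2.97, and of B cells to at most 4.97. With DAC in parental cells the T cell sum was 0.713 to 0.899 FPKM against at most 0.024 with DMSO, and the epithelial sum 1.45 to 1.93 against at most 0.186. Fibroblast markers, mostly COL1A1, summed to 0.644 to 0.693 FPKM in parental cells with DMSO, 6.61 to 7.24 with DAC, 6.26 to 6.35 in DAC-resistant cells with DMSO and 4.72 to 4.78 with DAC. Plasma cell markers summed to 2.71 to 3.04, 7.63 to 7.74, 9.42 to 9.87 and 10.6 to 11.2 FPKM in the same order. The part of these markers in the results below was not tested. The monocyte co-receptor CD14 was 1.45 and 1.58 FPKM in parental cells with DMSO and 18.98 and 20.8 with DAC. In DAC-resistant cells CD14 was 0.75 and 0.989 FPKM with DMSO and 0.837 and 1.37 with DAC.

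In parental cells with DMSO, MCL1 was the most abundant member at 54.2 ± 0.744 FPKM (SD, n = 2), and PMAIP1, which encodes its BH3-only partner, came next at 25.9 ± 0.663. BAK1 (24.1 ± 0.227 FPKM) and BCL2 (23.8 ± 0.259) followed, and their libraries overlapped in level. BAX was at 19.4 ± 1.53 FPKM, BID at 16.02 ± 0.153 and BCL2L11 at 7.503 ± 0.279. BCL2L1 (3.40 ± 0.376 FPKM) and BBC3 (3.16 ± 0.0646) also overlapped, and BCL2A1 was the lowest at 1.32 ± 0.294. MCL1 led the order in all 4 groups. BCL2A1 was last in every group but parental cells with DAC, where it lay between BCL2 and BCL2L11 and BBC3 was last.

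**Figure D1:**
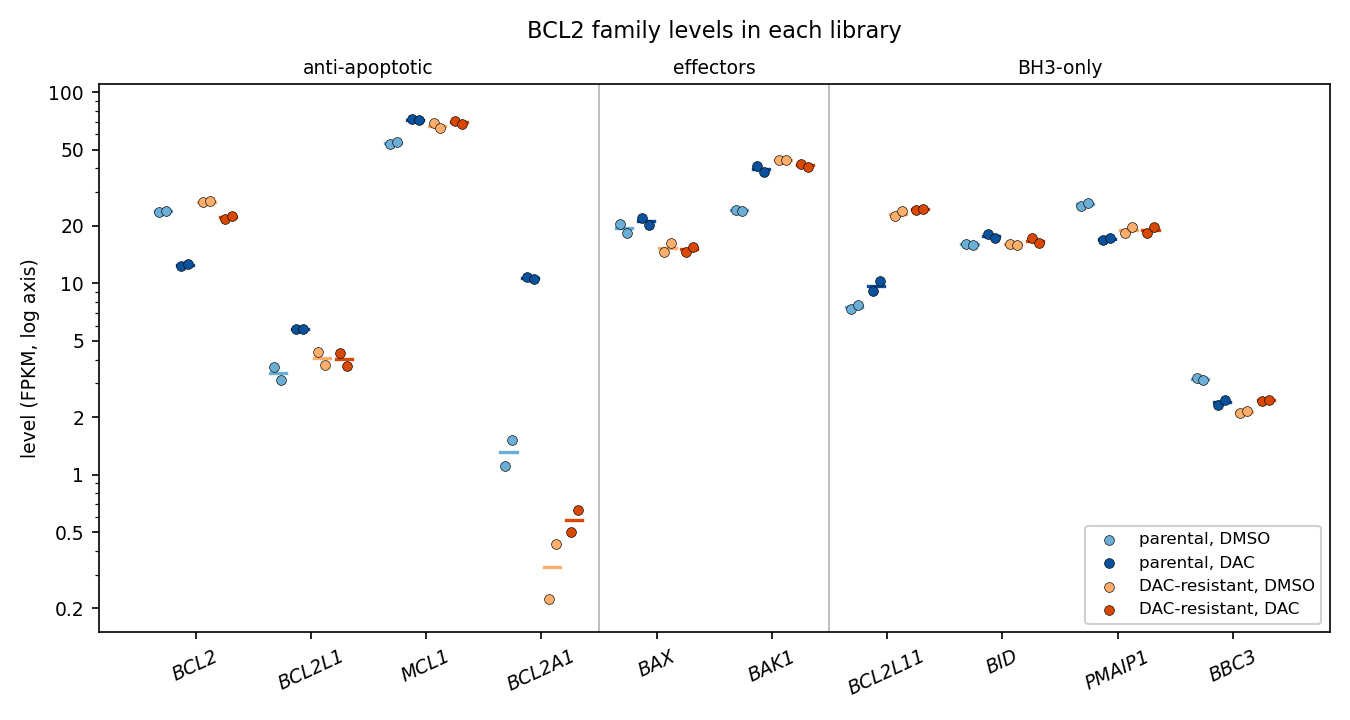
Level of each family member in each library (FPKM, log axis), grouped by class; points are the 2 libraries of a group and bars their mean. BCL2A1 spans the widest range, from 0.223 to 10.8 FPKM, while BID stays between 15.9 and 18.1 FPKM in every library.

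DNA methylation, which DAC lowers, sits on cytosines followed by guanine (CpG). The 250 bases before the RefSeq transcription start were therefore read for each member from the RefSeq promoter set (assembly GRCh38.p14), in which 9 of 10 members had an entry and MCL1 had none. Over the 27305 promoters of that set the median was 11 CpG, with quartiles at 3 and 23. The 3 windows shown belong to members with large changes described below (BCL2A1 and BAK1 with DAC in parental cells, BCL2L11 and BAK1 in the DAC-resistant line), read 5′ to 3′ toward that start, with each CpG in capitals. They lie at chr15:79971197-79971446 (BCL2A1, minus strand), chr6:33580277-33580526 (BAK1, minus strand) and chr2:111120664-111120913 (BCL2L11, plus strand). In GENCODE release 44, which was used for the exon lengths, the BCL2A1 window lies outside the gene and 17 bases of the BAK1 window fall in an exon of a longer transcript. The BCL2L11 window lies wholly inside the gene, in an intron of longer transcripts, since the RefSeq start is 1536 bases from the outermost annotated start. The BCL2 window (chr18:63319770-63320019, minus strand) lies wholly in the 5′ untranslated part of a longer transcript, and its sequence is not printed.
BCL2A1: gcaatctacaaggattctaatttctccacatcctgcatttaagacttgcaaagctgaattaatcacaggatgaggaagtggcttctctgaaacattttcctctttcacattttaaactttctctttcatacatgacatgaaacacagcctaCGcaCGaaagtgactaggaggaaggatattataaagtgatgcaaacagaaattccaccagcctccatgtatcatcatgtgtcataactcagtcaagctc
BAK1: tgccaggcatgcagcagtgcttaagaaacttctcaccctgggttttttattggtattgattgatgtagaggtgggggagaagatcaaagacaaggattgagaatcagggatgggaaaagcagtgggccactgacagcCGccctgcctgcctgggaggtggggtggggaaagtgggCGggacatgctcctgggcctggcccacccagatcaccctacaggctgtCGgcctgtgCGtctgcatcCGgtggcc
BCL2L11: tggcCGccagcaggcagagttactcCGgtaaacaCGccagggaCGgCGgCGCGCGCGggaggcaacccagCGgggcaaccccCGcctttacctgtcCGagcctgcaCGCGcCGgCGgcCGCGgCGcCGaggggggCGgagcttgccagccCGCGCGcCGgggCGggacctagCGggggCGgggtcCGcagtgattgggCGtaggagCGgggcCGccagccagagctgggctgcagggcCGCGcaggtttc

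The BCL2A1 window holds 2 CpG, a number at percentile 15.4 of all promoters of the set, and the BAK1 window holds 5 (percentile 35.0). BCL2 has 24 CpG in its window (percentile 76.7) and BCL2L11 has 34 (percentile 93.4). Among the other members the count was 4 in BBC3, 17 in BCL2L1, 25 in BAX, 30 in BID and 36 in PMAIP1. Nearly all members passed the test with DAC in parental cells (below), so CpG counts were not compared between changed and unchanged members. DNA methylation itself was not measured in these libraries. Both strands were also searched for 5 motifs. The core of the interferon response element (GAAA, any 2 bases, GAAA), found in 3.07% of the promoters of the set, occurs once among the 9 members, in BCL2A1 on the reverse strand as TTTCTCTTTC, beginning 133 bases before the RefSeq start. The forkhead motif GTAAACA (2.98% of promoters) occurs once, in BCL2L11, beginning 223 bases before the RefSeq start. The motifs of NF-kB (GGGA, any 3 bases, TCC; 4.33%), E2F (TTTGGCGC, 0.553%) and the cyclic AMP response element (TGACGTCA, 1.77%) were not present in these windows. A match is a description of the letters and not of binding.

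The first comparison asked how levels in parental cells with DAC differ from those with DMSO. The paper reports that DAC was far less toxic to DAC-resistant than to parental cells. Bulk RNA of the cells collected cannot separate a change within cells from a loss of some of the cells. The part of cell loss in the changes with DAC, and in their difference between the lines, was not tested. Within the anti-apoptotic class BCL2 fell from 23.8 to 12.49 FPKM in mean level and BCL2A1 rose from 1.32 to 10.7, and BCL2L1 and MCL1 rose as well. BAK1 rose and BAX did not pass the test, and within the BH3-only class BCL2L11 and BID rose whereas PMAIP1 and BBC3 fell. In all, 6 members rose and 3 fell by limma at a Benjamini-Hochberg adjusted p under 0.05. Over all 14899 genes tested 57.7% passed in this comparison (33.6% higher and 24.1% lower), so that calls were common in this comparison. The study's volcano plots used a stricter rule (p of at most 0.01 and a change of at least 2-fold). Applied here to the limma fit on the log2(FPKM + 1) scale, that rule passed 1 member, BCL2A1, against 9.31% of all genes. The median log2 fold change was 0.23 over the members and 0.06 over all genes.

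BCL2A1 was 1.11 and 1.52 FPKM with DMSO, resting on 35 and 46 reads, and 10.8 and 10.5 FPKM with DAC, resting on 296 and 288 reads. The groups did not overlap, as was so for 79.4% of all genes tested, and the mean level rose 8.11-fold. On the log2(FPKM + 1) scale the change was 2.34 ± 0.124 (SE), with an adjusted p of 1.28e-05 by limma, and it lay at percentile 98.7 of the changes of all genes tested. Of the 10 monocytic markers, 8 were also higher in both libraries with DAC, and 2 were lower: CD33, at 9.92 and 9.74 FPKM with DMSO and 8.10 and 7.61 with DAC, and CD4, at 151 and 163 against 121 and 125. Among the 8, LYZ, which encodes lysozyme, went from 11.4 and 12.6 FPKM to 46.7 and 48.9, and ITGAM (CD11b) from 6.41 and 6.40 to 11.2 and 11.5. The part of these markers in the BCL2A1 result was not tested, and in bulk RNA fewer cells of a kind cannot be told apart from less RNA per cell.

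BCL2 was 23.7 and 24.0 FPKM with DMSO and 12.3 and 12.7 with DAC. Its mean level was 1.91-fold lower with DAC, and the change of -0.88 ± 0.0322 (SE) was the largest fall of the family (limma, adjusted p = 2.56e-06). BCL2L1 was 3.67 and 3.14 FPKM with DMSO and 5.77 and 5.79 with DAC, a mean 1.70 times as high (log2 change 0.63 ± 0.0958, adjusted p = 0.00153 by limma). MCL1 was 53.7 and 54.7 FPKM with DMSO and 72.3 and 71.2 with DAC, a mean 1.32 times as high (log2 change 0.40 ± 0.0362, adjusted p = 0.000142 by limma). In each of these genes the libraries with DAC lay apart from those with DMSO. The exons of MCL1 overlap ADAMTSL4 on the opposite strand, which lay between 3.96 and 15.3 FPKM, and whether reads were counted by strand is not given in the sources used here.

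Of the effectors, BAK1 was 24.3 and 23.9 FPKM with DMSO and 41.2 and 38.2 with DAC. The groups did not overlap, and the mean was 1.65 times as high with DAC (log2 change 0.70 ± 0.0394, adjusted p = 1.7e-05 by limma). Reads of BAK1 could be shared with its processed pseudogene BAK1P1, which was listed at 1.19 to 2.35 FPKM. BAX, whose libraries overlapped, was 20.5 and 18.3 FPKM with DMSO and 21.98 and 20.3 with DAC. Its log2 change of 0.12 had a 95% interval from -0.06 to 0.30 and an adjusted p of 0.216 by limma.

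PMAIP1 was 25.4 and 26.4 FPKM with DMSO and 16.8 and 17.2 with DAC. It went from the second to the fifth place of the family in level (log2 change -0.58 ± 0.0475, adjusted p = 8.72e-05 by limma). BBC3 was 3.21 and 3.12 FPKM with DMSO and 2.32 and 2.47 with DAC (log2 change -0.30 ± 0.0618, adjusted p = 0.00631 by limma). Both of these BH3-only genes thus fell with DAC in parental cells, while the BH3-only members BCL2L11 and BID rose. BCL2L11 was 7.31 and 7.70 FPKM with DMSO and 9.12 and 10.3 with DAC (log2 change 0.33 ± 0.0607, adjusted p = 0.00353 by limma). BID was 16.1 and 15.9 FPKM with DMSO and 18.1 and 17.3 with DAC, the smallest rise that passed the test (log2 change 0.14 ± 0.0405, adjusted p = 0.0255 by limma). The call on BID was lost when the values were rescaled to TPM (adjusted p = 0.0521), under quantile normalization (0.03, adjusted p = 0.555) and under upper-quartile scaling (0.03, adjusted p = 0.61), as well as without either DMSO library (adjusted p = 0.0705 and 0.101) and without the first DAC library (adjusted p = 0.114).

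The second comparison asked how levels in DAC-resistant cells differ with the same treatment. BCL2 fell, and it was the only member of the 10 to pass the test. BCL2 was 26.6 and 26.8 FPKM with DMSO and 21.8 and 22.6 with DAC, without overlap, as in 56.3% of all genes (log2 change -0.26 ± 0.0322, adjusted p = 0.00651 by limma). Over all genes 11.2% passed in this comparison (5.88% higher and 5.35% lower), and at the 2-fold rule 0.235% passed and 0 members. No member rose by limma, by voom on recovered reads or at an unadjusted p under 0.05 (0 in each). The median log2 change was 0.03 over the members and 0.01 over all genes.

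The other 9 members had log2 changes between -0.09 (BAK1) and 0.25 (BCL2A1). BCL2A1 was 0.223 and 0.435 FPKM with DMSO and 0.504 and 0.656 with DAC, resting on 7 and 13 reads against 16 and 20. The libraries did not overlap, yet the log2 change had a 95% interval from -0.04 to 0.55 and an adjusted p of 0.255 by limma. With a pseudocount of 0.1 FPKM in place of 1 this change of BCL2A1 was 0.70, and by voom on recovered reads it was 0.85, with adjusted p of 0.173 and 0.42. MCL1 was 68.6 and 64.6 FPKM with DMSO and 70.8 and 67.9 with DAC, and the groups overlapped (log2 change 0.06, 95% interval -0.03 to 0.14 (limma)). BAK1 was 44.3 and 43.9 FPKM with DMSO and 42.0 and 40.7 with DAC (log2 change -0.09, 95% interval -0.19 to 0.00). BCL2L1 had a log2 change of -0.02 with an interval from -0.25 to 0.21, and PMAIP1 of 0.00 with an interval from -0.11 to 0.12. For BAX, BCL2L11, BID and BBC3 the log2 changes were -0.03, 0.07, 0.06 and 0.14.

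**Figure D2:**
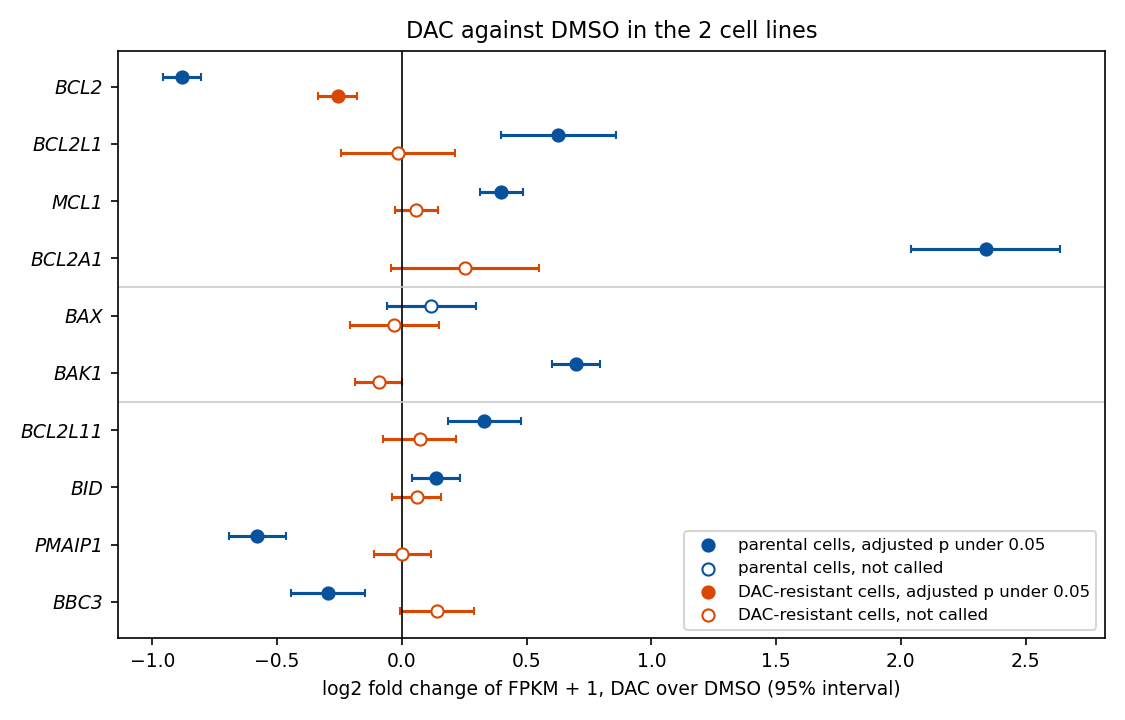
Log2 fold change of FPKM + 1 with DAC against DMSO for each member in parental (blue) and DAC-resistant (orange) cells, with 95% intervals; filled points passed the test. In parental cells 9 of 10 members are filled, and in DAC-resistant cells BCL2 alone, at -0.26.

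Whether the change with DAC differed between the lines was tested directly, as the DAC effect in DAC-resistant cells minus that in parental cells. By limma this difference passed for 8 of 10 members, 3 higher and 5 lower, against 49.3% of all genes (20.9% higher and 28.4% lower). It was largest for BCL2A1, at -2.09 ± 0.175 (SE, adjusted p = 0.000156), the member that also passed the 2-fold rule, which 10.6% of all genes did. BAK1 had a difference of -0.79 (adjusted p = 7.44e-05), BCL2L1 of -0.64 (adjusted p = 0.00804) and MCL1 of -0.34 (adjusted p = 0.00191). These 4 genes rose with DAC in parental cells. For BCL2 the difference was 0.62 (adjusted p = 8.77e-05), for PMAIP1 0.58 (adjusted p = 0.000596) and for BBC3 0.44 (adjusted p = 0.00638), the 3 genes that DAC lowered in the parental line. BCL2 therefore fell in both lines, and by less in DAC-resistant cells. For BCL2L11 the difference of -0.26 passed narrowly (adjusted p = 0.044), and the call was lost without a filter (adjusted p = 0.106), with TPM (0.0971), with quantile normalization (0.119), with upper-quartile scaling (-0.16, 0.16) and in 7 of the 8 fits that left out 1 library (0.0529 to 0.126). BAX (-0.15, 95% interval -0.40 to 0.10) and BID (-0.08, 95% interval -0.22 to 0.06) did not pass.

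The third comparison set DAC-resistant against parental cells, both with DMSO, and asked how the lines differ without drug. It shares its parental DMSO libraries with the first comparison, so the values of the 2 comparisons are given side by side and not as independent. The DAC-resistant line had more BCL2L11, BAK1, MCL1 and BCL2, and less BCL2A1, PMAIP1, BBC3 and BAX. By limma 4 members were higher and 4 lower, against 57.5% of all genes (31.3% higher and 26.2% lower). At the 2-fold rule, applied on the log2(FPKM + 1) scale, BCL2L11 alone passed, against 8.73% of all genes. BCL2A1, whose mean level differed 4.01-fold, had a difference of -0.80 on that scale. The median log2 difference was 0.08 over the members and 0.02 over all genes.

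BCL2L11 was 7.31 and 7.70 FPKM in parental cells and 22.4 and 23.8 in DAC-resistant cells, without overlap (78.6% of all genes had none). The mean was 3.08 times as high, and the log2 difference of 1.50 ± 0.0607 (SE) lay at percentile 98.3 of all genes (limma, adjusted p = 4.68e-06). This gene went from the seventh place in level in parental cells to the fourth in the DAC-resistant line. DAC in parental cells changed it by 0.33, as given above. The exon length of BCL2L11 in the annotation used here did not return whole reads, so its read numbers, about 1562 to 5223 per library, are approximate. Its exons overlap the noncoding gene MIR4435-2HG, which was listed at 0.576 to 0.741 FPKM.

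BAK1 was 24.3 and 23.9 FPKM in parental cells and 44.3 and 43.9 in DAC-resistant cells. The mean was 1.83 times as high (log2 difference 0.85 ± 0.0394, adjusted p = 8.1e-06 by limma), and the DAC-resistant libraries without drug lay above even the parental libraries with DAC, at 41.2 and 38.2 FPKM. BAX went the other way, from 20.5 and 18.3 FPKM to 14.6 and 16.2 (log2 difference -0.32 ± 0.0743, adjusted p = 0.0102 by limma). The call on BAX was lost without the first parental library (-0.24, adjusted p = 0.0568) and without the first DAC-resistant library (-0.24, adjusted p = 0.0573).

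BCL2A1 was 1.11 and 1.52 FPKM in parental cells against 0.223 and 0.435 in DAC-resistant cells. The parental mean was 4.01 times that of the DAC-resistant line, though at 7 and 13 reads the latter is known only coarsely. The log2 difference of -0.80 ± 0.124 (limma, adjusted p = 0.00162) understates a change at such low levels. With a pseudocount of 0.1 FPKM the BCL2A1 difference was -1.75, rescaled to TPM it was -1.34, and by voom on recovered reads it was -2.01. Of the 10 monocytic markers, 9 were also lower in both DAC-resistant libraries and 1 was higher (CD68, at 0.718 and 1.35 FPKM against 0.642 and 0.366). LYZ was 11.4 and 12.6 FPKM in parental cells and 3.69 and 4.88 in the DAC-resistant line, and CSF1R, the receptor for macrophage colony-stimulating factor, was 13.8 and 14.6 against 6.83 and 6.72. Their part in the BCL2A1 difference was not tested.

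PMAIP1 was lower in DAC-resistant cells, at 18.4 and 19.6 FPKM against 25.4 and 26.4 (log2 difference -0.43 ± 0.0475, adjusted p = 0.000348 by limma). BBC3 was also lower, at 2.099 and 2.15 FPKM against 3.21 and 3.12 (-0.41 ± 0.0618, adjusted p = 0.00138 by limma). In both genes the DAC-resistant libraries without drug were thus below the parental ones, as the parental libraries with DAC were. MCL1 was 68.6 and 64.6 FPKM against 53.7 and 54.7 (0.29 ± 0.0362, adjusted p = 0.000585 by limma), and under quantile normalization the MCL1 difference came to 0.17 with an adjusted p of 0.00406. BCL2 was 26.6 and 26.8 FPKM against 23.7 and 24.0 (0.16 ± 0.0322, adjusted p = 0.00561 by limma). This small BCL2 difference lost its call under quantile normalization (0.07, adjusted p = 0.128) and upper-quartile scaling (0.06, adjusted p = 0.13). BCL2L1 (0.20, 95% interval -0.03 to 0.43, adjusted p = 0.115 by limma) and BID (0.00, 95% interval -0.10 to 0.10) did not pass, and BID was 16.1 and 15.9 FPKM in both lines.

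**Figure D3:**
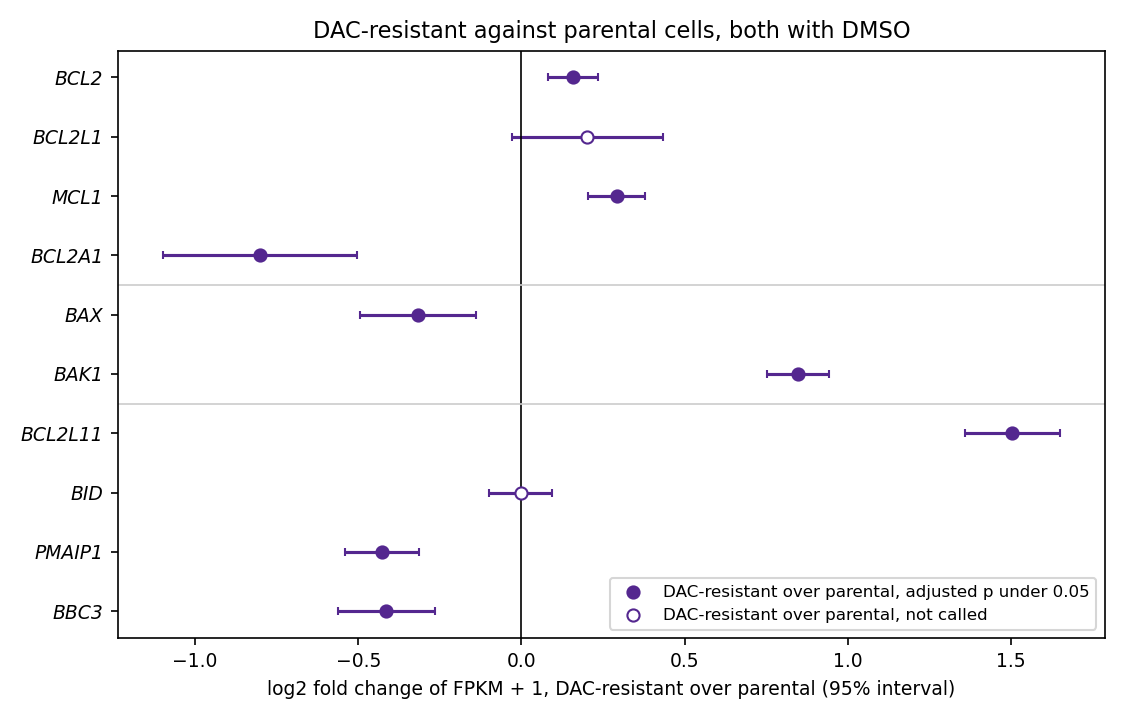
Log2 fold change of FPKM + 1 in DAC-resistant over parental cells, both with DMSO, with 95% intervals; filled points passed the test. BCL2L11 (1.50) and BAK1 (0.85) lie farthest to the right and BCL2A1 (-0.80) farthest to the left.

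The make-up of each class was described as the share of each member in the summed FPKM of its class. Such sums and ratios across genes depend on the exon length used for each gene. For BCL2L11 the length in the annotation used here did not return whole reads, so its shares and ratios are approximate. Sums set side by side between groups also depend on how each library was scaled. A class here holds only its members described above, and relatives named further below, such as BIK and BMF, are left out of its sum. These shares are descriptions without a test. The summed anti-apoptotic level was 82.8 ± 0.921 FPKM in parental cells with DMSO, 100.7 ± 0.692 with DAC, 97.7 ± 3.01 in DAC-resistant cells with DMSO and 96.1 ± 1.77 with DAC (SD, n = 2 each). In parental cells BCL2 made up 28.8% of the class with DMSO and 12.4% with DAC, while BCL2A1 went from 1.59% to 10.6% and MCL1 from 65.5% to 71.3%. In DAC-resistant cells BCL2 made up 27.4% with DMSO and 23.1% with DAC, and BCL2A1 made up 0.339% with DMSO and 0.605% with DAC. The level of MCL1 over that of BCL2 was 2.27 and 2.28 in the parental DMSO libraries and 5.88 and 5.61 with DAC, against 2.58 and 2.41 in the DAC-resistant DMSO libraries and 3.25 and 3.01 with DAC.

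Among the effectors, BAK1 made up 55.4% of the summed level in parental cells with DMSO, 65.3% with DAC, 74.2% in DAC-resistant cells with DMSO and 73.3% with DAC. BAK1 over BAX was 1.18 and 1.31 in the parental DMSO libraries and 3.04 and 2.71 in the DAC-resistant ones. The summed level of the effectors was 43.5 ± 1.75 FPKM with DMSO and 60.9 ± 3.31 with DAC in the parental line, against 59.5 ± 0.919 in DAC-resistant cells with DMSO. Among the BH3-only members described here, PMAIP1 had the largest share in parental cells with DMSO (49.2%) and BID with DAC (37.9%). BCL2L11 had the largest share in DAC-resistant cells both with DMSO (38.4%) and with DAC (38.9%). The BH3-only relatives BIK and BMF, left out of these sums, were at 23.4 and 21.2 FPKM in parental cells with DAC, above BID at 17.7. In each other group the leading member lay above both relatives. BCL2 over BCL2L11 was 3.24 and 3.12 in the parental DMSO libraries, 1.35 and 1.23 with DAC, 1.19 and 1.12 in the DAC-resistant DMSO libraries and 0.898 and 0.925 with DAC. DAC-resistant cells with DAC were the only group in which BCL2L11 had the higher FPKM of this pair, an order that depends on the exon lengths used. Gene-level values do not separate splice forms, which matter for BCL2L1 and MCL1, whose short forms are known to promote death where the long forms prevent it.

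**Figure D4:**
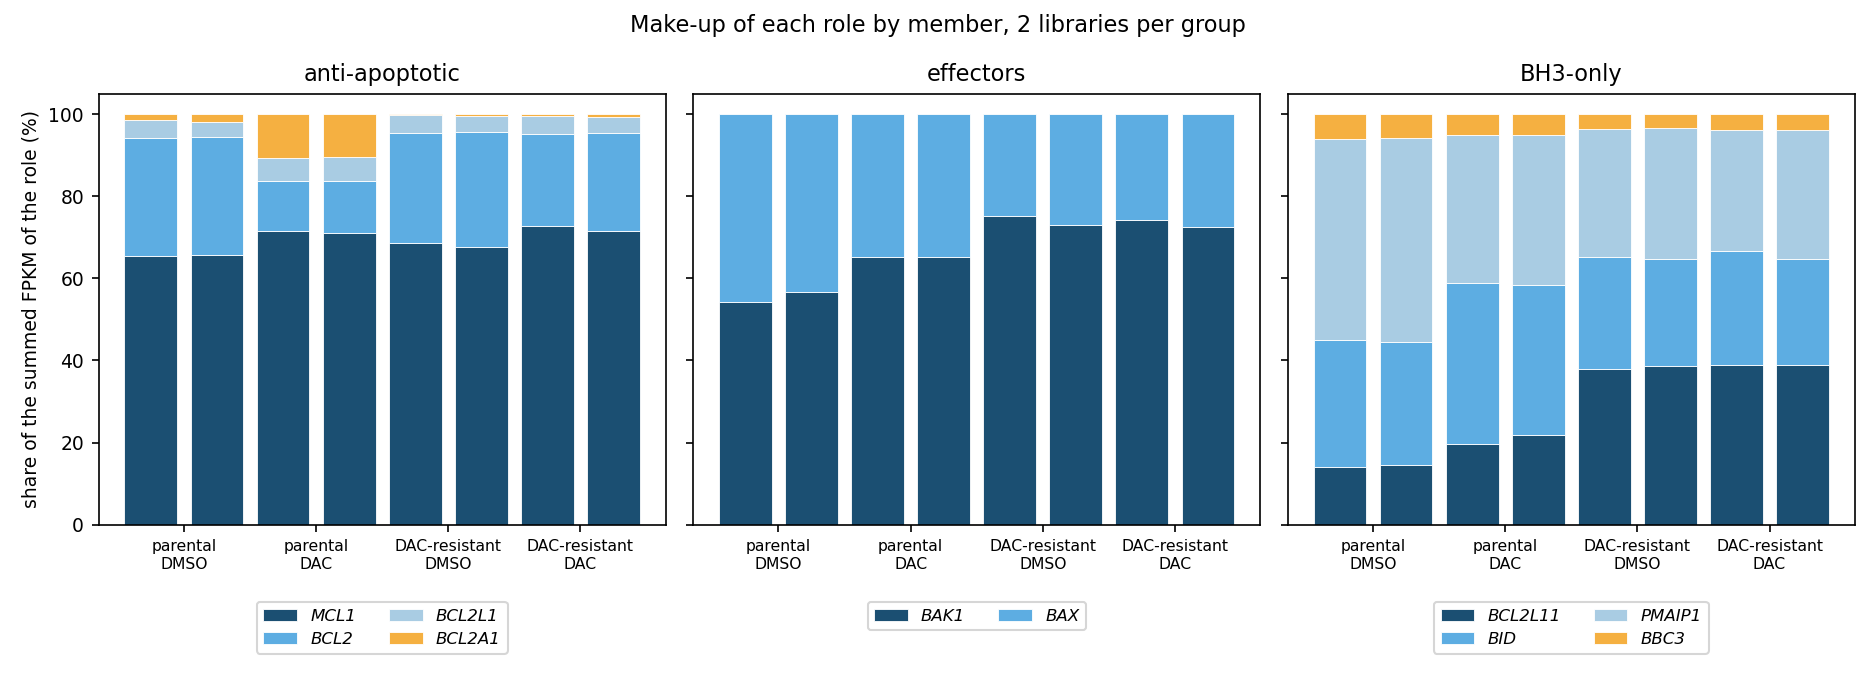
Share of each member in the summed FPKM of the described members of its class (%), with 1 bar per library and 2 libraries per group. In parental cells with DAC the BCL2 share is 12.4% and the BCL2A1 share 10.6%. The BCL2L11 share of the BH3-only members shown is 38.4% in DAC-resistant cells with DMSO against 14.3% in parental cells with DMSO.

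Around the family, 64 further genes of the mitochondrial and death receptor pathways were listed, of which 59 passed the filter (BCL2L14, BCL2L15, HRK, DIABLO and FASLG did not). With DAC in parental cells 33 of the 59 were higher and 11 lower, against 33.6% and 24.1% of all genes, with a median log2 change of 0.26. In DAC-resistant cells 5 were higher and 2 lower, against 5.88% and 5.35% of all genes, with a median of 0.00. Without drug, 19 were higher and 18 lower in DAC-resistant than in parental cells, against 31.3% and 26.2% of all genes. The difference between the DAC effects was higher for 8 and lower for 26, against 20.9% and 28.4% of all genes. These background shares apply to each list below as well, and a count near its share is no result about that list.

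Among the less studied relatives of the family, 3 of 8 tested genes rose and 1 fell with DAC in parental cells (33.6% and 24.1% of all genes). BMF, a BH3-only gene, was 11.8 and 11.4 FPKM with DMSO and 21.2 and 21.1 with DAC (log2 change 0.81, adjusted p = 5.39e-06 by limma). BOK, a relative of BAX and BAK1, rose from 0.0118 and 0.0984 FPKM to 1.24 and 1.22 (1.08, adjusted p = 0.000815), and BCL2L10 from 1.22 and 1.10 to 2.096 and 3.28 (0.75, adjusted p = 0.0115). The size of the BOK change depends on how such low levels are treated, and it was 3.16 with a pseudocount of 0.1 FPKM, 2.11 with TPM and 4.87 by voom on recovered reads. BCL2L13 fell by 0.32 (adjusted p = 0.0125). The call on BCL2L10 was lost with a pseudocount of 0.1 FPKM (adjusted p = 0.0607), those on BCL2L10 and BCL2L13 without the second DMSO library (adjusted p = 0.056 and 0.067), and that on BCL2L13 also without the first DAC library (-0.29, adjusted p = 0.0757). In DAC-resistant cells 0 of the 8 passed with DAC by limma, 0 by voom, and 3 at an unadjusted p under 0.05, and BMF had a log2 change of -0.10 (adjusted p = 0.143). Without drug, BIK, another BH3-only gene, was lower in DAC-resistant cells, at 8.26 and 6.23 FPKM against 20.7 and 21.7 (-1.44, adjusted p = 0.00023), while BOK (1.30, adjusted p = 0.000344; 3.51 with a pseudocount of 0.1 FPKM and 5.23 by voom) and BCL2L12 (1.01, adjusted p = 1.09e-05) were higher. BCL2L10 (-0.79, adjusted p = 0.00966) and BMF (-0.24, adjusted p = 0.00133) were lower, and the call on BCL2L10 was lost without the second DAC-resistant DMSO library (-0.67, adjusted p = 0.0556). BCL2L2 had log2 changes of 0.07 and -0.05 with DAC in the 2 lines and a difference of -0.10 without drug, and BAD of 0.27, -0.32 and 0.09, and none of these passed the test. The BAD change in parental cells passed with the replicate block (adjusted p = 0.0487) and without the second DMSO library (0.45, adjusted p = 0.0178). The difference between the DAC effects passed for 4 of the 8 relatives: BMF (-0.91, adjusted p = 2.6e-05), BOK (-1.49, adjusted p = 0.00125; -3.87 with a pseudocount of 0.1 FPKM and -5.65 by voom), BAD (-0.59, adjusted p = 0.0383) and BCL2L13 (0.40, adjusted p = 0.0264). The call on BCL2L13 was lost without a filter (adjusted p = 0.079) and in 4 of the 8 fits that left out 1 library (0.0584 to 0.0893), and that on BAD was lost without a filter (adjusted p = 0.11), with TPM (0.0562), with quantile normalization (0.0704), with upper-quartile scaling (0.067) and in 7 of the 8 fits that left out 1 library (0.0504 to 0.127).

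Downstream of the pore, 6 of 11 caspase and apoptosome genes rose with DAC in parental cells and 2 fell (33.6% and 24.1% of all genes). The count of falls came to 1 without the second DMSO library or either DAC library. CASP6, which encodes a caspase, rose by 0.46 (adjusted p = 0.00394 by limma). With DAC in DAC-resistant cells 0 of the 11 passed by limma, while 2 were lower by voom and 2 at an unadjusted p under 0.05. Without drug, 5 were higher and 2 lower in DAC-resistant cells (31.3% and 26.2% of all genes). CYCS, which encodes cytochrome c, was 42.1 and 43.1 FPKM there against 20.3 and 21.9 in parental cells (0.98, adjusted p = 8.08e-06). CASP8, the initiator caspase of death receptors, was lower at 4.95 and 5.45 FPKM against 10.8 and 10.3 (-0.90, adjusted p = 2.95e-05).

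The list of inhibitors of apoptosis (IAPs) and their antagonists had 5 of 8 genes higher and 2 lower with DAC in parental cells (33.6% and 24.1% of all genes). In DAC-resistant cells 0 passed in either direction with DAC (0 by voom, 1 at an unadjusted p under 0.05). Without drug, 3 were higher and 2 lower in DAC-resistant cells (31.3% and 26.2% of all genes). Without the second DMSO or the second DAC library of parental cells 3 of 8 were higher with DAC, without the first DMSO or the first DAC library 1 was lower, and the 3 genes higher without drug came to 1 under quantile normalization and upper-quartile scaling and without any single one of the 4 DMSO libraries. XAF1, an interferon-inducible antagonist of XIAP, went from 5.22 and 4.56 FPKM to 15.8 and 15.8 with DAC in parental cells (1.51, adjusted p = 1.22e-05 by limma). In DAC-resistant cells XAF1 was 5.43 and 4.63 FPKM with DMSO and 5.42 and 5.51 with DAC. BIRC3 (cIAP2) was lower in DAC-resistant cells without drug, at 0.620 and 0.752 FPKM against 2.63 and 2.46 (-1.07, adjusted p = 0.000126). BIRC5 (survivin), whose transcript is highest in dividing cells, was 48.9 and 47.8 FPKM in DAC-resistant cells against 24.0 and 23.0 in parental cells (1.01, adjusted p = 8.99e-06).

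In the death receptor pathway 10 of 11 genes rose by limma with DAC in parental cells (6 under quantile normalization), against 33.6% of all genes. In that list 0 fell, also by voom and at an unadjusted p under 0.05, against 24.1% of all genes by limma. In DAC-resistant cells 2 rose and 0 fell by limma, while 1 was lower by voom, at an unadjusted p under 0.05 and without either parental DMSO library. Without drug, 5 were higher and 4 lower in the DAC-resistant line (31.3% and 26.2% of all genes). TNFSF10, which encodes the death ligand TRAIL, was 5.19 and 3.89 FPKM with DMSO and 24.9 and 26.7 with DAC in parental cells (2.29, adjusted p = 2.84e-05 by limma). In DAC-resistant cells TNFSF10 was 5.98 and 5.69 FPKM with DMSO and 3.04 and 4.17 with DAC (-0.58, adjusted p = 0.0519; by voom -0.72, adjusted p = 0.00123), and the difference between the effects was -2.87 (adjusted p = 7.95e-05). CFLAR, which encodes the caspase-8 inhibitor c-FLIP, rose by 0.56 when parental cells received DAC (adjusted p = 8.41e-05) and was lower in DAC-resistant cells without drug, at 3.04 and 3.14 FPKM against 7.74 and 7.501 (-1.08, adjusted p = 5.64e-06). The decoy TRAIL receptor gene TNFRSF10D rose with DAC in DAC-resistant cells, from 5.59 and 6.04 to 10.2 and 9.96 FPKM (0.70, adjusted p = 0.00286), as did TNFRSF10B, which encodes a TRAIL receptor with a death domain (0.22, adjusted p = 0.0194). The call on TNFRSF10B was lost without any single DAC-resistant library (adjusted p = 0.0612 to 0.107) and with only the 4 libraries compared (0.0722).

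Of 7 genes for mitochondrial docking and MCL1 turnover, 1 rose and 3 fell with DAC in parental cells (33.6% and 24.1% of all genes). The latter count came to 1 without the second DMSO or the first DAC library. VDAC2, whose channel recruits BAK and BAX to mitochondria, was 49.3 and 50.9 FPKM with DMSO and 38.1 and 39.5 with DAC (-0.36, adjusted p = 0.00041 by limma). USP9X, a deubiquitinase of MCL1, rose by 0.20 (adjusted p = 0.00221) and HUWE1, a ubiquitin ligase of MCL1, fell by 0.14 (adjusted p = 0.0176), calls lost under upper-quartile scaling for USP9X (0.09, adjusted p = 0.0566) and without either DMSO library for HUWE1 (adjusted p = 0.0606 and 0.0708) or the first DAC library (-0.10, adjusted p = 0.0737). Between the lines without drug VDAC3 was lower (-0.25, adjusted p = 0.000447) and VDAC1 slightly higher (0.09, adjusted p = 0.0334), and VDAC1 lost its call without a filter (adjusted p = 0.0725) and in 5 of the 8 fits that left out 1 library (0.0512 to 0.16), and turned to -0.02 under quantile normalization and -0.01 under upper-quartile scaling. With DAC in DAC-resistant cells VDAC1 fell by 0.14 (adjusted p = 0.0293), a call lost without any single DAC-resistant library (adjusted p = 0.094 to 0.139), without a filter (0.0815), with TPM (0.0905) and with only the 4 libraries compared (0.0584).

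Among 14 transcription factors known to act on the family, 8 rose and 3 fell with DAC in parental cells (33.6% and 24.1% of all genes). ATF4, a stress factor that can induce PMAIP1 and BBC3, was 206 and 212 FPKM with DMSO and 108 and 109 with DAC (-0.94, adjusted p = 6.27e-07 by limma). In DAC-resistant cells ATF4 was 243 and 235 FPKM with DMSO and 287 and 285 with DAC, and the difference between the effects was 1.20 (adjusted p = 1.89e-06). MYC fell with DAC in parental cells, from 32.8 and 31.4 to 17.1 and 16.9 FPKM (-0.88, adjusted p = 3.9e-06), and TP73 rose (0.73, adjusted p = 0.000535). In DAC-resistant cells ATF4 (0.26, adjusted p = 0.00252), DDIT3 (0.50, adjusted p = 0.00778) and IRF1 (0.29, adjusted p = 0.0347) rose and E2F1 fell (-0.39, adjusted p = 0.00697) with DAC, but the calls on DDIT3, E2F1 and IRF1 were lost without the second DAC library (adjusted p = 0.0565, 0.0509 and 0.129). With only the 4 libraries compared those on E2F1 (adjusted p = 0.0521) and IRF1 (0.0996) were lost, and that on IRF1 was lost also without a filter (0.0718), with the replicate block (0.0608) and in 6 of the 8 fits that left out 1 library (0.0616 to 0.132). In parental cells DAC also moved DDIT3 (0.44, adjusted p = 0.00153), IRF1 (0.63, adjusted p = 0.000209) and E2F1 (-0.42, adjusted p = 0.000449) in these directions, and the difference between the effects was 0.07 for DDIT3 and 0.04 for E2F1, neither past the test. For IRF1 it was -0.34 (adjusted p = 0.0182), a call lost in 4 of the 8 fits that left out 1 library (0.0501 to 0.0539). Without drug, 3 of the 14 were higher (5 with TPM) and 6 lower in DAC-resistant cells (31.3% and 26.2% of all genes). FOXO1, a forkhead factor that can induce BCL2L11, was 4.94 and 5.49 FPKM against 1.33 and 1.52 (1.36, adjusted p = 3.93e-05). NFKB1, a subunit of NF-kB, of which BCL2A1 is a known target, was 3.36 and 3.56 FPKM against 10.0 and 10.4 (-1.33, adjusted p = 1.64e-05). TP73 was also lower (-1.57, adjusted p = 1.76e-05). ATF4 was higher in DAC-resistant cells without drug (0.19, adjusted p = 0.000672 by limma), where PMAIP1 and BBC3 were lower. The part of these factors in the levels of the family was not tested.

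**Figure D5:**
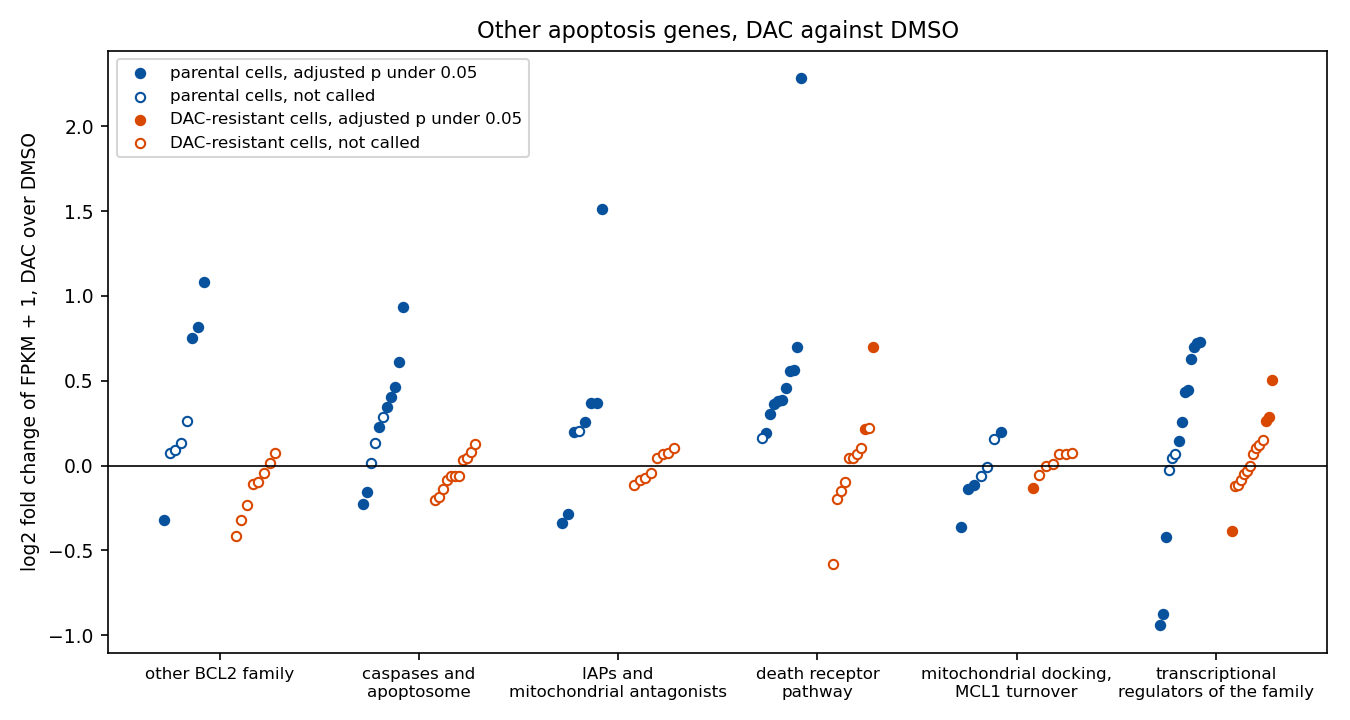
Log2 fold change of FPKM + 1 with DAC against DMSO for the 59 tested genes around the family, by list, in parental (blue) and DAC-resistant (orange) cells; filled points passed the test. In parental cells TNFSF10 reaches 2.29, and in DAC-resistant cells 7 of the 59 points are filled.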

How the data were processed

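RNA-seq libraries of both THP-1 lines were made with an mRNA kit from total RNA. Per the labels and the study's methods, the authors trimmed reads with Cutadapt 1.9.1, aligned them to hg38 with HISAT2 2.1.0, handled alignments with SAMtools 1.6 and counted reads per gene with HTSeq 0.13.5. They deposited FPKM values for 60664 genes and 1264 repeat families, written 1000 times as large. The repeat families were not used here.

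Deposited FPKM values were divided by 1000, and log2(FPKM + 1) was fitted for the 14899 genes that reached 1 FPKM in 2 or more of the 8 libraries, with limma 3.58.1 (R 4.3.3), as 4 group means in a single fit, with variances moderated along a trend (4 residual and 2.50 prior degrees of freedom). Contrasts were DAC against DMSO in each line, the 2 lines against each other with DMSO, and the difference of the DAC effects between lines. P-values are two-sided and were adjusted by the Benjamini-Hochberg method over all genes tested, and a call needed an adjusted p under 0.05. Errors of levels are SD over 2 libraries and errors of changes are standard errors of the fit.

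Reads behind the values were recovered from exon lengths of GENCODE release 44. They came within 0.05 of a whole number for 87.5% to 88.4% of the values of a library and in all libraries for 9 of 10 members. In none of the 4 groups were the replicates identical. The fit was also run on simulated reads with the same fixed spread for every gene. That setting is simpler than these data, and its outcome is not used here.

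The members and gene lists were chosen with earlier results of these data known. Named from the lists were the other BCL2 family genes that passed the filter and, per comparison and list, up to 3 called genes with the largest change whose libraries do not overlap. A few of these are given in other comparisons too. Some genes that this rule names are not reported here. Alternatives were a pseudocount of 0.1 FPKM, no filter, a mean of at least 5 FPKM, TPM, quantile and upper-quartile scaling, a replicate block, only the 4 libraries compared, a 2-fold rule, voom run on the recovered reads, and leaving out each library.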

Additional observations from a re-analysis of the deposited data

Results flagged for a closer look

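The effect of DAC differed between DAC-resistant and parental cells for 8 of 10 family members, by limma's test of that difference (log2 scale, DAC-resistant minus parental, Benjamini-Hochberg adjusted p under 0.05, against 49.3% of all genes). The difference was -2.09 for BCL2A1, -0.79 for BAK1, -0.64 for BCL2L1, -0.34 for MCL1 and -0.26 for BCL2L11. It was 0.62 for BCL2, 0.58 for PMAIP1 and 0.44 for BBC3. The call on BCL2L11 is the least firm: it was lost in 12 of 17 alternatives, with an adjusted p of up to 0.16. With 2 libraries per group, no group was large enough to look for single libraries far from the others.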

How the results depend on the processing

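Over 452 alternative values of the 26 called member results, 408 kept their call, 44 lost it and 0 changed direction. At the 2-fold rule the counts of members were 1 higher and 0 lower with DAC in parental cells, 0 lower in DAC-resistant cells, 1 higher and 0 lower between the lines without drug, and 0 higher and 1 lower for the difference between the DAC effects. With a mean of at least 5 FPKM, which leaves 7 members (BCL2A1, BCL2L1 and BBC3 drop out), 2 were lower between the lines and 3 for the difference. Leaving out single libraries gave 5 to 6 members higher with DAC in parental cells, 3 to 4 lower between the lines and 4 to 5 lower for the difference. Of 804 counts of the pathway lists under alternatives other than the 2-fold rule, 87 moved by over 1.5 times.

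Changes that turned direction were small and uncalled apart from VDAC1. With DAC in DAC-resistant cells, BCL2L1 came to 0.0094 with TPM and to -0.10 to 0.072 without single libraries, PMAIP1 to -0.0056 under quantile normalization, -0.0060 under upper-quartile scaling and -0.043 to 0.048 without single libraries, and BAX to -0.10 to 0.043. Likewise BCL2L2 came to -0.13 to 0.039, BCL2L10 to -0.11 to 0.14 and BCL2L13 to -0.041 to 0.18. With DAC in parental cells, under quantile and upper-quartile scaling, BCL2L2 came to -0.023 and -0.012 (-0.13 to 0.27 without single libraries) and BCL2L12 to -0.013 and -0.011. Between the lines BID came to 0.068 with TPM and -0.011 to 0.0070 without single libraries, BAD to -0.10 to 0.28, and VDAC1 to -0.021 and -0.0088 under quantile and upper-quartile scaling. For the difference BID came to 0.017 and 0.025 under these scalings and, without single libraries, BCL2L2 to -0.32 to 0.080, DDIT3 to -0.016 to 0.15 and E2F1 to -0.012 to 0.083. The cause was not tested.

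Quantile normalization moved the median of all genes by -0.11 with DAC in parental cells and by 0.10 for the difference. Higher calls were then 45.1% of calls against 58.2% in parental cells, and 53.8% against 42.4% for the difference (46.4% and 52.9% under upper-quartile scaling). With DAC in DAC-resistant cells TPM gave 65.9% against 52.4%. That comparison called 1673 genes, and 234 higher and 200 lower with only the 4 libraries compared, 434 and 397 without a filter, 1549 and 1353 by voom, and 214 and 226 without the second DAC library, while without a filter 66% of calls in parental cells were higher.

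Replicate numbers did not pair the libraries: same-numbered samples correlated at -0.0218 to 0.0198 in their deviations from the group means. With the replicate block the members called were 6 higher and 3 lower, 0 and 1, 4 and 4, and 3 and 5 in the 4 comparisons, as without it, and in DAC-resistant cells 648 and 599 genes were called. The depth leaves BCL2A1 at 7 to 20 reads in DAC-resistant cells, so its changes there are known least.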
